A study of Mus musculus with 15 samples.

Results

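The interferon response genes described here are 50 genes selected by symbol from the 24451 genes of the deposited count table. The list was chosen with earlier results of these data known. All 50 were found in the table. Counts were high enough for testing at 47 of them, among 14600 genes tested, and the other 3 (Irf7, Sp100 and Ifit3) lay below the filter on low counts. By role the 50 are 6 sensors of viral nucleic acid, 7 transcription regulators, 6 interferon-inducible GTPases, 14 further antiviral effectors, 4 enzymes of ADP-ribosylation, 5 genes of ISG15 and ubiquitin conjugation and 8 genes of class I antigen presentation.

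The genes were measured by RNA sequencing in ES-R1 mouse embryonic stem cells, which per the labels grew without serum on N2 and B27 supplements and, per the series text, were differentiated for 4 days. There were 5 groups of 3 libraries. Control siRNA cells without addition are called untreated below, and Vprbp siRNA cells were also sampled without addition. Both siRNAs were combined with Activin A at 25 ng/ml, and the control siRNA alone was combined with an inhibitor called SB here, because the titles write SB431524 and the series text SB431542, and no dose is given. Every group carried an siRNA, only 1 cell line and 1 Vprbp siRNA group per Activin level were sampled, and the design asks how Activin, its inhibition and Vprbp knockdown alter the transcriptome. Whether replicates came from separate cultures is not in the labels, so a p-value here reflects the scatter among these libraries only, and that scatter may be technical.

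Interferons are secreted proteins that bind receptors on neighbouring cells and act through Jak kinases and Stat transcription factors. Type I interferon leads to a complex containing Stat2 and Irf9 that binds the interferon-stimulated response element (ISRE), and interferon gamma acts through the gamma-activated site (GAS). The induced genes encode RNA and DNA sensors, GTPases that attack intracellular pathogens, inhibitors of viral replication and the machinery that presents peptides on class I molecules. Pluripotent stem cells are known for a weak interferon response. Activin is a TGF-beta family ligand whose type I receptor phosphorylates Smad2 and Smad3, SB blocks that receptor kinase, and Vprbp (also Dcaf1) is a substrate receptor of a CRL4 ubiquitin ligase.

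Between 11.1 M and 15.5 M counts (M, mega) per library were assigned to genes. Values are CPM, the counts of a gene per M counts of its library, on library sizes scaled by TMM. Vprbp was at 173, 167 and 173 CPM in the untreated libraries and 121, 132 and 114 with Vprbp siRNA, and at 178, 175 and 184 and 149, 131 and 135 CPM in the same order with Activin. The ranges did not overlap at either Activin level, and the depletion was partial. The summed level of 12 embryonic stem cell markers was 5011 to 5651 CPM in the 12 libraries without SB and 3523 to 3956 CPM with SB. Summed levels of other markers are given in the order untreated, Activin, SB, Vprbp siRNA, and Vprbp siRNA with Activin. The 13 leukocyte markers summed to 59.0 to 90.8, 49.6 to 54.1, 76.3 to 87.2, 51.9 to 72.8 and 48.9 to 50.4 CPM. Most of this came from Cd68, Itgam and Laptm5 (13.5 to 35.9, 4.47 to 15.8 and 15.7 to 35.8 CPM over the 15 libraries), 6 of the 13 were tested, and Ptprc, the pan-leukocyte gene, did not exceed 0.0694 CPM. The 8 neural markers summed to 208 to 240.4, 182 to 188, 185 to 209.8, 239 to 268 and 216 to 217 CPM. The 12 fibroblast markers summed to 78.7 to 98.2, 67.6 to 73.9, 62.9 to 70.9, 72.0 to 80.5 and 64.9 to 75.8 CPM, and the 8 endothelial markers to 149 to 182, 161 to 168, 114 to 120.4, 136 to 171 and 129 to 152 CPM. Leukocyte and neural sums were lower with Activin under both siRNAs without overlap, and with Activin the neural sum was higher and the endothelial sum lower with Vprbp siRNA than with control siRNA, again without overlap. The part of these markers in the results was not tested. Replicate 3 of the untreated group stood apart from its group: it was the lowest of 3 for 31 of 47 interferon response genes (66.0%, against 39.4% of all genes tested), and the Activin target Lefty1 was at 102, 105 and 38.1 CPM in replicates 1 to 3. Vprbp siRNA replicate 3 was lowest for 31 of 47 and replicate 2 highest for 33, with Lefty1 at 126, 153 and 56.1 CPM. The part of these library differences in the results was not tested beyond the fits without single libraries given below. In bulk RNA, fewer cells of a type and less RNA per cell cannot be told apart.

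Promoter sequences from RefSeq on GRCm38.p6, from 250 bases before to 50 bases after each start, were found for 40 of the 50 genes. They were searched on both strands for the ISRE core, spelled GAAA, any 2 bases and GAAA, and for the GAS, spelled TTCNNNGAA. Neighbouring matches can overlap. An ISRE core was present in 17 of the 40 (42.5%), against 3.99% of 27025 genes with a promoter in the table, and a GAS in 11 (27.5%), against 9.55%. At least 1 of the motifs was present in 23 of 40 (57.5%, against 12.9%). A match is a description of these letters, not evidence of binding. The windows below are shown because these genes carry the responses described next, each with a match in capitals and up to 30 bases on either side, ending before the start. Psmb8, B2m, Gbp2, Irgm1 and Bst2 follow from the rule for named promoters, and Irgm2, Igtp and Irf1 were added after their values were seen.
Irgm2 (chr11:58214872-58214952, plus strand): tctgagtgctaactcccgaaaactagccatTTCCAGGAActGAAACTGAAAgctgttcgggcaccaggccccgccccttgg
Igtp (chr11:58199481-58199555, plus strand): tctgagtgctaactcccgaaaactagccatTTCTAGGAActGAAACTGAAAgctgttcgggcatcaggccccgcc
Irgm1 (chr11:48871421-48871480, minus strand): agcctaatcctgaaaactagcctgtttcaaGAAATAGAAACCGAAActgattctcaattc
Gbp2 (chr3:142620574-142620643, plus strand): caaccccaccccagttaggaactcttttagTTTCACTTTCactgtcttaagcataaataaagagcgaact
Bst2 (chr8:71537557-71537638, minus strand): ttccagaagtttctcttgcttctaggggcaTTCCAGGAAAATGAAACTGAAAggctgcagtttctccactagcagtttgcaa
B2m (chr2:122147518-122147587, plus strand): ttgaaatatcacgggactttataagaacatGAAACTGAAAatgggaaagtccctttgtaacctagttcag
Psmb8 (chr17:34198068-34198136, plus strand): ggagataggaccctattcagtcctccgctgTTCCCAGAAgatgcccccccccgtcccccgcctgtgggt
Irf1 (chr11:53769894-53769962, plus strand): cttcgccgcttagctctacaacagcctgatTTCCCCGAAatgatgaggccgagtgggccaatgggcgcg
Irgm2 and Igtp, neighbours separated by 7385 bases on chromosome 11, were identical at 73 of the 75 bases shown for Igtp and hold a GAS followed by an ISRE core at the same spacing. Irgm1 holds 2 overlapping ISRE cores, and Bst2 a GAS that overlaps the first of 2 overlapping ISRE cores. Gbp2 holds the ISRE core on the opposite strand, and Psmb8 and Irf1 hold a GAS alone. B2m, which rose with SB, holds an ISRE core as well. Among the 20 genes with a promoter that rose with Activin under either siRNA, 10 held an ISRE core, and 12 held either motif. Among the other 20 genes with a promoter these counts were 7 and 11.

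**Figure D1:**
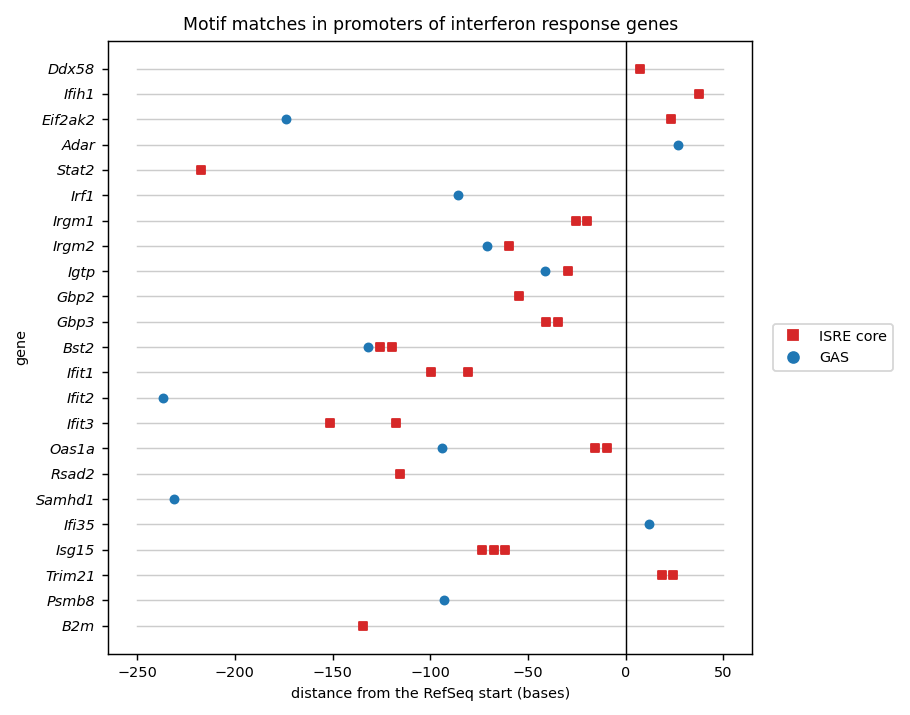
Positions of ISRE core matches (squares) and GAS matches (circles) in the promoters of the 23 interferon response genes that hold one, in bases from the RefSeq start (vertical line). Matches lie on either side of the start, and several genes such as Irgm1, Gbp3 and Isg15 hold overlapping ISRE cores.

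Activin in control siRNA cells raised a set of interferon response genes, led by the GTPases. Of 47 tested, 19 rose and 0 fell, where 2.95% of all 14600 genes rose and 1.88% fell (4.83% called in all). The test was the quasi-likelihood test of edgeR, fitted to all 15 libraries, with p-values adjusted by Benjamini-Hochberg over all genes tested and a threshold of 0.05. The genes that rose were 5 of 6 GTPases, 3 of 4 ADP-ribosylation genes, 3 of 8 antigen presentation genes, 4 of 13 tested effectors, 2 of 6 sensors, 1 of 5 ISG15 and ubiquitin genes, and Irf1 of 5 tested transcription regulators. The median log2 fold change was 0.75 over the 47 genes and -0.01 over all genes tested. All 3 Activin libraries lay above all 3 untreated libraries at 30 of 47 genes, against 14% of all genes tested. Among these, Ifit1, Rsad2, Ifi27 and Isg15 needed the libraries with Activin, where they were high, to pass the filter on low counts. They are therefore no separate support for the rise, and Ifit1 is also among the 19 called. By role, the median was highest for the GTPases, at 1.92, and near 0 for the transcription regulators, at -0.02.

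The calls for Activin depended on single libraries more than the direction did. Leaving out untreated replicate 1, 2 or 3 left 15, 12 or 4 calls, and leaving out Activin replicate 1, 2 or 3 left 7, 5 or 4, with medians between 0.56 and 0.81. Irgm2 and Parp14 kept their calls in each of these 6 fits. Zbp1 and Psmb8 lost theirs without Activin replicate 3 (adjusted p = 0.055 and 0.064), and the other 15 in 2 to 6 of the fits.

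SB in control siRNA cells moved interferon response genes in both directions. Of 47 tested, 4 rose (Ddx58, B2m, Eif2ak2 and Usp18) and 6 fell (Zbp1, Psmb8, Parp12, Tapbp, Tap2 and Irgm1), where 11.2% of all genes tested rose and 11.3% fell (22.6% called in all). The share called, 21.3%, lay near that background, and the median log2 fold change was -0.06. Ranges were all higher with SB at 11 genes and all lower at 11, against 18.8% and 18.4% of all genes. Leaving out single libraries gave 7 to 13 calls, and B2m, Ddx58, Eif2ak2, Parp12, Psmb8 and Zbp1 kept theirs in every one of these fits, while Irgm1, Tap2, Tapbp and Usp18 lost theirs in 2 to 5 of the 6. Leaving out the 3 libraries farthest from their groups (untreated replicate 3, Vprbp siRNA replicate 3 and Vprbp siRNA with Activin replicate 1) gave 17 calls, 6 higher and 11 lower.

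Set directly against SB, Activin gave higher levels of 24 genes and lower levels of 6, where 19% of all genes tested were higher and 19% lower (38% called in all). This comparison uses the Activin and SB libraries of the responses above, and those responses share the untreated libraries, so the values are set side by side below and are not separate evidence. All 6 GTPases, all 4 ADP-ribosylation genes and 6 of 8 antigen presentation genes were higher with Activin. The 6 lower genes were B2m, H2-D1, Ddx58, Eif2ak2, Adar and Irf9. Ranges were all higher with Activin at 27 genes and all lower at 7, against 27.2% and 27.6% of all genes tested. Rsad2, Ifi27 and Isg15, in separate ranges here, needed the libraries with Activin, where they were high, to pass the filter on low counts. Their ranges and the call of Ifi27 are therefore no separate support. The median log2 difference was 0.72, and that over all genes tested was near 0. Of the 30 calls, 22 held in every fit without 1 library, Zbp1, Psmb8, the GTPases, B2m and Ddx58 among them. Parp9 lost its call in all 6 fits, and Adar, Eif2ak2, H2-D1, H2-K1, Ifi27, Irf9 and Psmb9 in 2 to 5.

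**Figure D2:**
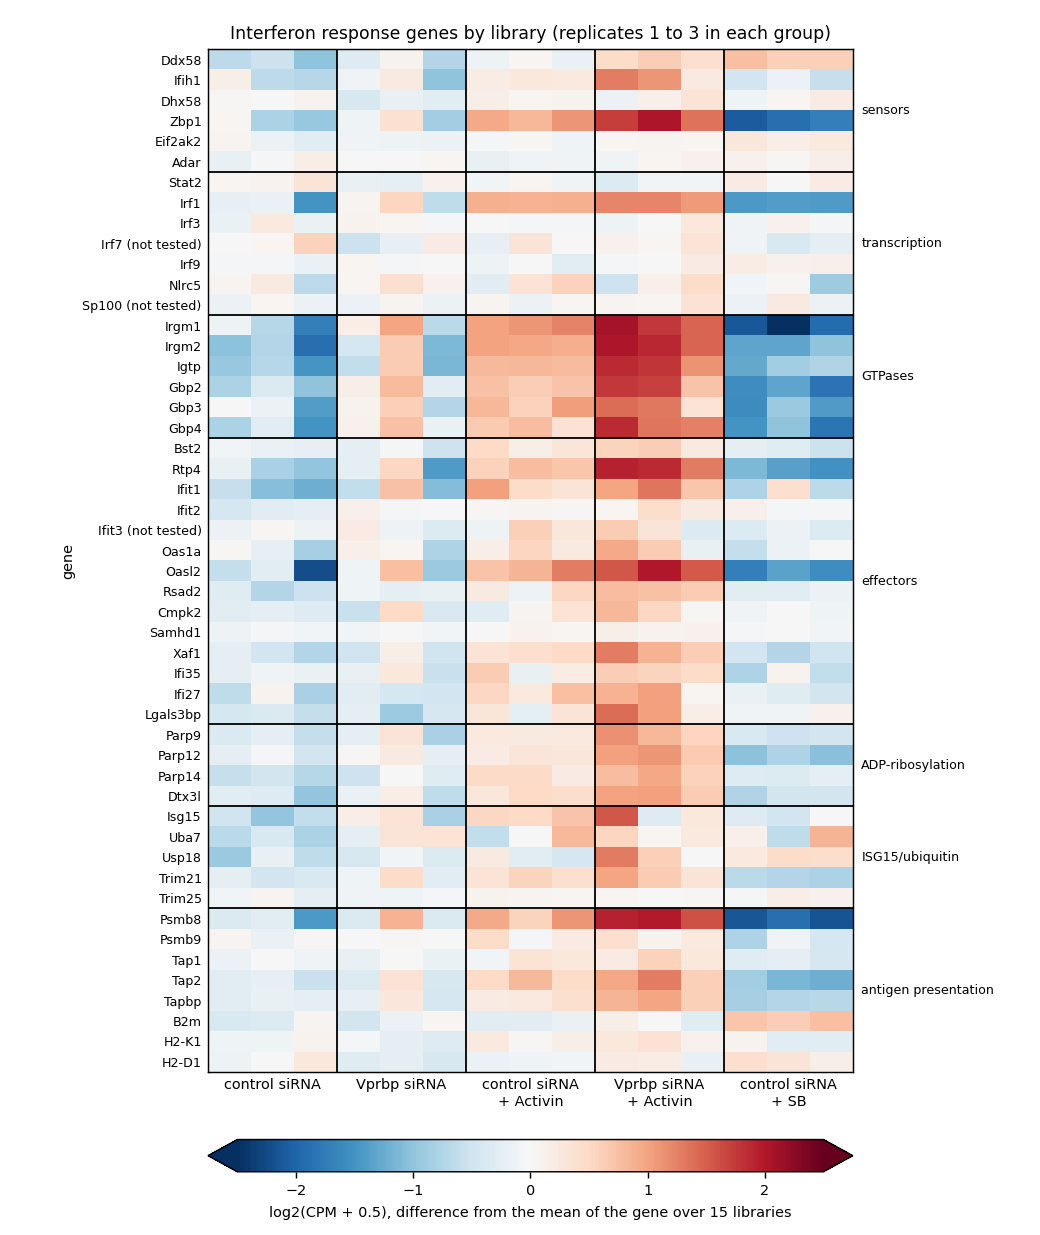
Level of each of the 50 genes in each of the 15 libraries, as log2(CPM + 0.5) minus the mean of the gene over all libraries, with genes grouped by role and libraries by group (replicates 1 to 3 from left to right). Most GTPases, Psmb8, Zbp1 and Oasl2 are red with Activin and blue with SB and in untreated replicate 3, while Ddx58 and B2m are red with SB.

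The GTPases gave the largest group response to Activin. Irgm2, an immunity-related GTPase of the vacuoles that hold pathogens, was at 2.71, 3.41 and 1.27 CPM untreated, 12.5, 12.3 and 11.6 with Activin and 2.11, 2.10 and 2.72 with SB. All Activin libraries lay above all others of the control siRNA, while untreated and SB libraries overlapped. The log2 fold change was 2.29 ± 0.40 with Activin (adjusted p = 0.0066) and -0.10 ± 0.49 with SB (adjusted p = 0.92). Igtp, its neighbour and a GTPase of the same family, was at 2.71, 3.26 and 1.72 CPM untreated, 10.3, 10.6 and 10.2 with Activin and 2.04, 2.89 and 3.15 with SB. Igtp was likewise high with Activin alone, with 2.00 ± 0.42 with Activin (adjusted p = 0.017) and 0.07 ± 0.48 with SB (adjusted p = 0.95). Irgm1, which regulates the other members of this family, was at 5.22, 3.33 and 1.42 CPM untreated, 12.0, 12.9 and 14.2 with Activin and 0.945, 0.579 and 1.15 with SB. Here the 3 groups did not overlap, with untreated in the middle. Irgm1 rose with Activin (1.95 ± 0.44, adjusted p = 0.028) and fell with SB (-1.91 ± 0.63, adjusted p = 0.048).

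The guanylate binding proteins Gbp2, Gbp3 and Gbp4 coat and rupture pathogen membranes. Gbp2 was at 4.41, 6.09 and 3.75 CPM untreated, 13.6, 12.5 and 13.4 with Activin and 2.40, 2.89 and 1.86 with SB. Its 3 groups did not overlap, and it rose by 1.47 ± 0.32 with Activin on the log2 scale (adjusted p = 0.022), while the SB value of -0.99 ± 0.40 did not pass (adjusted p = 0.092). Gbp4 was at 0.678, 1.16 and 0.225 CPM untreated, 2.68, 2.98 and 2.12 with Activin and 0.218, 0.506 and 0.0716 with SB. Gbp4 rose with Activin (1.88 ± 0.44, adjusted p = 0.017), and against SB it was higher by 3.24 ± 0.52 (adjusted p = 6.2e-05). Gbp3 averaged 0.961 ± 0.645 CPM (SD, n = 3) untreated, 2.90 ± 0.545 with Activin and 0.289 ± 0.192 with SB. Gbp3 was the GTPase that did not pass with Activin (adjusted p = 0.078), although it was higher than with SB by 3.30 ± 0.61 (adjusted p = 0.00038). The Gbp genes are close relatives that may share reads, and Gbp3 and Gbp2 lie near each other on chromosome 3.

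The sensors did not move together. Zbp1, a sensor of Z-form nucleic acid that can trigger cell death, was at 1.70, 0.725 and 0.599 CPM untreated, 3.60, 3.25 and 4.03 with Activin and 0, 0.0723 and 0.143 with SB. The 3 groups did not overlap, and Zbp1 was near the limit of detection with SB. It rose with Activin (1.83 ± 0.39, adjusted p = 0.01) and fell with SB (adjusted p = 0.0015). The SB libraries held 3 Zbp1 counts in all against 43 untreated, a ratio of 0.0703 (exact 95% interval 0.014 to 0.22, counting error only), and against 144 with Activin, a ratio of 0.0197 (0.00401 to 0.0587). Ddx58, which encodes the RNA sensor RIG-I, was at 16.2, 17.5 and 12.5 CPM untreated, 23.3, 26.6 and 22.7 with Activin and 43.4, 38.8 and 38.9 with SB. Both treatments thus lay above untreated without overlap, and SB above Activin. Ddx58 rose by 0.64 ± 0.16 with Activin (adjusted p = 0.034) and by 1.39 ± 0.16 with SB (adjusted p = 7.3e-06). Eif2ak2, which encodes the RNA-dependent kinase PKR, was at 27.5, 23.5 and 21.3 CPM untreated, 25.1, 26.6 and 24.1 with Activin and 31.6, 29.4 and 30.9 with SB. It rose with SB by a small amount (0.35 ± 0.09, adjusted p = 0.009) and overlapped between untreated and Activin (0.06 ± 0.09, adjusted p = 0.75). Ifih1, the RNA sensor MDA5, averaged 1.01 ± 0.537 CPM untreated and 1.76 ± 0.0660 with Activin and did not pass in control siRNA cells (adjusted p = 0.33). The RNA editing enzyme Adar averaged 90.7 ± 3.46 CPM with Activin and 105 ± 4.57 with SB, a difference of -0.22 ± 0.08 (adjusted p = 0.034).

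Class I antigen presentation split between the peptide supply genes and B2m. Psmb8, a catalytic subunit of the immunoproteasome, was at 1.97, 2.10 and 0.674 CPM untreated, 5.66, 4.15 and 6.35 with Activin and 0.218, 0.362 and 0.215 with SB. The 3 groups did not overlap, and SB libraries were near 0. Psmb8 rose with Activin (1.76 ± 0.37, adjusted p = 0.012) and fell with SB (-2.55 ± 0.61, adjusted p = 0.0058). Tap2, a subunit of the peptide transporter, was at 6.78, 7.03 and 5.47 CPM untreated, 11.8, 14.7 and 11.5 with Activin and 4.29, 3.47 and 3.22 with SB. Tap2 showed the same order without overlap, with 0.97 ± 0.21 for Activin (adjusted p = 0.011) and -0.81 ± 0.24 for SB (adjusted p = 0.018). Tapbp, or tapasin, which loads peptides onto class I molecules, was at 45.3, 47.3 and 45.3 CPM untreated, 62.8, 64.1 and 71.2 with Activin and 30.3, 32.6 and 33.1 with SB. It rose with Activin (0.52 ± 0.14, adjusted p = 0.041) and fell with SB (-0.52 ± 0.14, adjusted p = 0.014), but the Activin call was lost in each of the 6 fits without 1 library. Tap1, the other transporter subunit, averaged 25.2 ± 1.48, 30.3 ± 4.53 and 21.3 ± 1.47 CPM in the same order, and Psmb9, another immunoproteasome subunit, 3.53 ± 0.363, 4.24 ± 0.849 and 2.57 ± 0.722. Tap1 and Psmb9 passed only for Activin against SB (0.51 ± 0.12 and 0.72 ± 0.22) among the comparisons in control siRNA cells. Psmb9, Tap1, Psmb8 and Tap2 lie side by side on chromosome 17, with gaps of 226, 970 and 3025 bases between neighbours.

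B2m, the light chain shared by class I molecules, was at 27.6, 28.6 and 38.4 CPM untreated, 29.7, 30.3 and 32.5 with Activin and 58.8, 55.6 and 61.5 with SB. SB libraries lay above all others, and untreated replicate 3 was the highest of its group. B2m rose with SB (0.90 ± 0.13, adjusted p = 8.8e-05) and its Activin value was -0.03 ± 0.14 (95% interval -0.30 to 0.24, adjusted p = 0.93). The heavy chain gene H2-K1 averaged 61.6 ± 4.89 CPM untreated, 69.8 ± 5.12 with Activin and 57.7 ± 8.42 with SB, and H2-D1 averaged 16.0 ± 2.33, 14.4 ± 0.373 and 19.2 ± 1.93. Against SB, Activin gave a higher level of H2-K1 (0.28 ± 0.10, adjusted p = 0.038) and a lower level of H2-D1 (-0.41 ± 0.13, adjusted p = 0.015). These heavy chain genes are close relatives whose reads may be split. B2m overlaps Patl2 in the annotation, and the strand setting of the counting is not known here. Among the 8 antigen presentation genes B2m had the highest level per length in all 5 groups, at 35.9 to 68.2 CPM per kilobase of exon.

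The ADP-ribosylation genes were higher with Activin than with SB at 4 of 4, where 19% of all genes tested were higher. Parp14, a mono-ADP-ribosyltransferase, was at 10.7, 11.7 and 9.66 CPM untreated, 22.9, 22.9 and 18.8 with Activin and 12.9, 12.7 and 13.8 with SB. It rose with Activin (1.01 ± 0.14, adjusted p = 0.00027), and SB libraries also lay above untreated without passing (0.30 ± 0.14, adjusted p = 0.14). Parp12, a transferase that restricts RNA viruses, was at 16.3, 19.0 and 13.9 CPM untreated, 22.5, 24.02 and 23.7 with Activin and 9.23, 11.2 and 9.09 with SB. Parp12 lay in 3 separate ranges, rising with Activin (0.51 ± 0.14, adjusted p = 0.042) and falling with SB (-0.74 ± 0.15, adjusted p = 0.0013). Dtx3l, the ubiquitin ligase that pairs with Parp9, was at 25.1, 24.2 and 15.1 CPM untreated, 37.3, 43.0 and 41.3 with Activin and 18.0, 21.8 and 21.8 with SB. Activin libraries were highest (0.91 ± 0.21, adjusted p = 0.025), while SB overlapped untreated (-0.07 ± 0.21, adjusted p = 0.87). Parp9 averaged 16.1 ± 2.18 CPM untreated, 25.2 ± 0.291 with Activin and 15.4 ± 0.737 with SB and passed for Activin against SB (0.71 ± 0.23, adjusted p = 0.024), a call lost in each of the 6 fits without 1 library and without the filter on low counts. Dtx3l and Parp9 overlap on chromosome 16, and the strand setting of the counting is not known. How fragments in the overlap were assigned is therefore uncertain.

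Among the antiviral effectors Bst2 was the most abundant per length. Bst2, or tetherin, which holds budding virus at the cell surface, was at 60.5, 56.6 and 55.3 CPM untreated, 90.0, 71.0 and 79.1 with Activin and 53.8, 51.4 and 43.9 with SB. Its per-length level of 63.7 CPM per kilobase untreated and 88.6 with Activin was the highest of the 50 genes in both groups. Bst2 rose modestly with Activin (0.48 ± 0.12, adjusted p = 0.034), and all SB libraries lay below untreated without passing (-0.21 ± 0.12, adjusted p = 0.26). Xaf1, a partner and antagonist of the apoptosis inhibitor Xiap, was at 2.78, 2.25 and 1.80 CPM untreated, 4.36, 4.61 and 4.89 with Activin and 2.25, 1.81 and 2.22 with SB. Xaf1 rose with Activin (1.01 ± 0.25, adjusted p = 0.025), with untreated and SB overlapping. Rtp4, an interferon-induced chaperone of receptors, was at 1.29, 0.652 and 0.524 CPM untreated, 2.52, 2.98 and 2.78 with Activin and 0.436, 0.289 and 0.215 with SB. The 3 ranges of Rtp4 were separate, and it rose with Activin (1.72 ± 0.47, adjusted p = 0.043), with -1.38 ± 0.67 for SB (adjusted p = 0.15). Rtp4 overlaps Masp1 in the annotation.

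Of the other effectors, Ifit1, which binds viral RNA lacking host cap marks, rose with Activin (2.84 ± 0.79, adjusted p = 0.047) from a very low level, 0.209 ± 0.175 CPM untreated and 1.59 ± 0.552 with Activin. Its untreated group held 9 counts in all, so the size is imprecise. Ifit1 also needed the libraries with Activin to pass the filter on low counts. Oasl2, related to the oligoadenylate synthetases, averaged 5.79 ± 3.52 CPM untreated and 21.2 ± 4.54 with Activin and missed the threshold (adjusted p = 0.051), but it was higher than with SB by 2.65 ± 0.51 (adjusted p = 0.002). Ifi27 was likewise higher against SB (1.81 ± 0.66, adjusted p = 0.036), at 0.766 ± 0.225 and 0.217 ± 0.0738 CPM. Ifi27 too needed the libraries with Activin, where it was high, to pass the filter on low counts. Its call is therefore no separate support for the difference. The call was lost in 5 of the 6 fits without 1 library and by DESeq2. Lgals3bp, a secreted glycoprotein, was at 2.04, 2.17 and 1.80 CPM untreated, 3.75, 2.44 and 3.83 with Activin and 2.76, 2.75 and 3.22 with SB, and neither control siRNA comparison passed (adjusted p = 0.17 for Activin and 0.25 for SB). Rsad2, or viperin, averaged 0.165 ± 0.100 CPM untreated and 0.611 ± 0.249 with Activin (adjusted p = 0.055).

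Irf1, a transcription factor that activates many of these genes, was at 59.0, 60.5 and 23.7 CPM untreated, 126, 124 and 127 with Activin and 24.9, 25.7 and 25.3 with SB. The Activin libraries lay close together and above all untreated ones, and untreated replicate 3 lay below the other untreated libraries and just below the SB libraries. Irf1 rose with Activin (1.39 ± 0.33, adjusted p = 0.04), and the SB value was -0.92 ± 0.35 (adjusted p = 0.089). Without untreated replicate 2 or 3, or without any 1 of the Activin libraries, the Activin call was lost. The log2 fold changes were 1.07 to 1.59 over the 6 fits. Irf9, a subunit of the ISRE binding complex, averaged 21.0 ± 2.30 CPM with Activin and 25.4 ± 0.720 with SB (-0.28 ± 0.10, adjusted p = 0.031). Stat2, Irf3 and Nlrc5, a transactivator of class I genes, were not called in any comparison.

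In the ISG15 and ubiquitin group, Trim21, a ubiquitin ligase and intracellular antibody receptor, was at 4.82, 4.06 and 4.34 CPM untreated, 7.50, 8.76 and 8.00 with Activin and 3.49, 3.33 and 3.15 with SB. Trim21 rose with Activin (0.87 ± 0.21, adjusted p = 0.02), and its 3 SB libraries lay below untreated without passing (-0.41 ± 0.23, adjusted p = 0.22). Usp18, which removes ISG15 and restrains the type I receptor, was at 0.271, 0.797 and 0.449 CPM untreated, 1.22, 0.723 and 0.595 with Activin and 1.24, 1.52 and 1.504 with SB. Usp18 rose with SB (1.48 ± 0.47, adjusted p = 0.028) and overlapped between untreated and Activin (0.74 ± 0.52, adjusted p = 0.45). Isg15 itself averaged 0.118 ± 0.105, 0.982 ± 0.123 and 0.336 ± 0.147 CPM in the same order and passed in no comparison. Isg15 also needed the libraries with Activin to pass the filter on low counts.

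**Figure D3:**
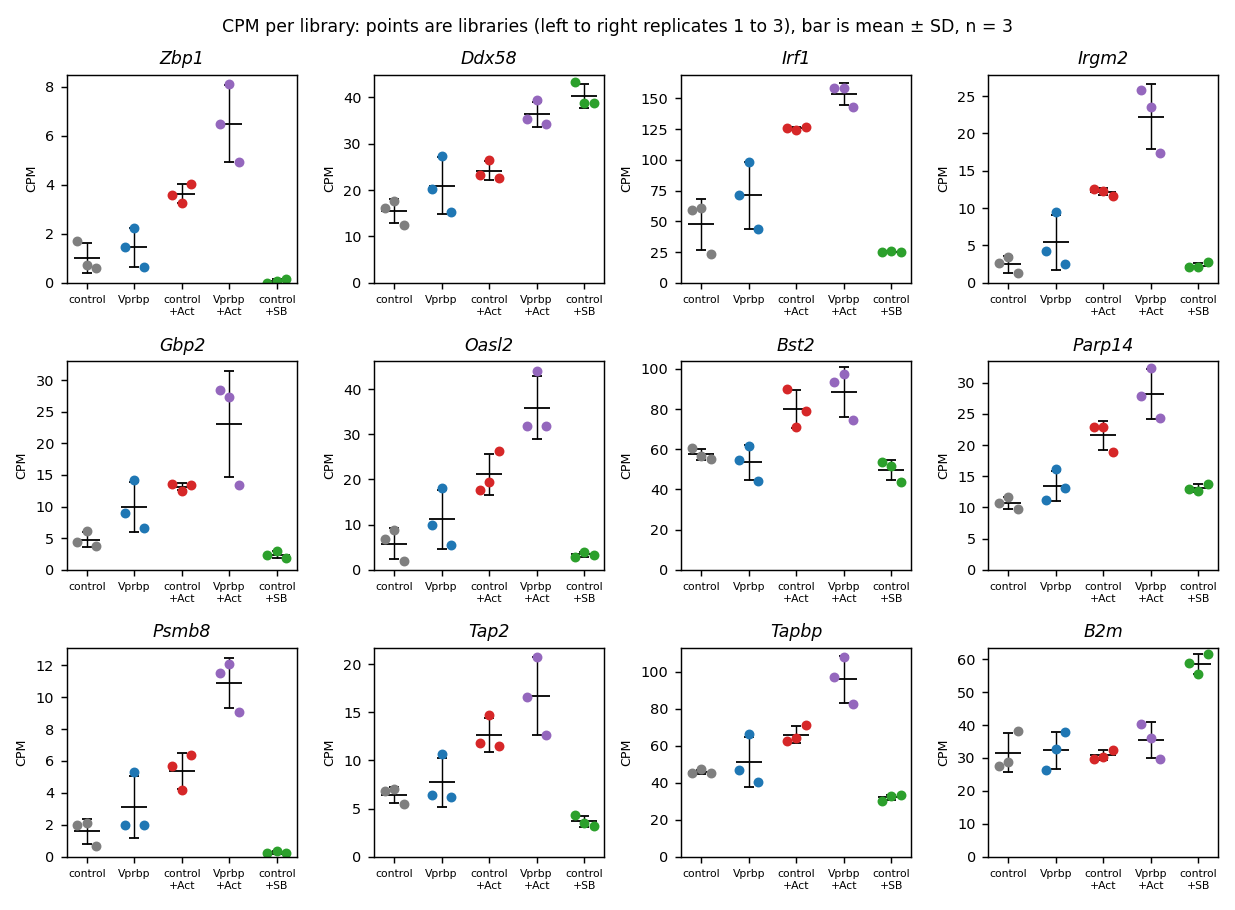
CPM in each library for 12 of the genes, with points from left to right for replicates 1 to 3 and bars for the mean and SD (n = 3) in each group. Zbp1, Psmb8 and Tap2 are low with SB and high with Activin. Irgm2 is high with Activin and overlaps between untreated and SB. Ddx58 is above untreated with both, and B2m is high with SB alone.

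The same response was measured again in cells with the Vprbp siRNA, which share no library with the comparison above. The comparisons are not fully separate, because same-numbered untreated and Vprbp siRNA libraries deviated together (correlation across genes of 0.123, 0.196 and 0.369). There 24 of 47 genes rose with Activin and 0 fell, where 3.65% of all genes rose and 2.47% fell (6.12% called in all). The median log2 fold change was 0.95, against -0.01 over all genes tested. Ranges were all higher at 32 genes, against 11.2% of all genes. Called in both siRNA backgrounds were 16 genes, which is 84.2% of the 19 and 66.7% of the 24. Irf1, Ifit1 and Trim21 passed with the control siRNA alone, and H2-K1, Ifi27, Ifih1, Lgals3bp, Oasl2, Parp9, Rsad2 and Tap1 with the Vprbp siRNA alone. That the backgrounds differ at these genes was not shown, since no difference of responses passed. Rsad2, Ifi27, Ifit1 and Isg15 needed the libraries with Activin, where their means were higher, to pass the filter on low counts. Their calls and separate ranges, where they had any, are therefore no separate support for the rise. Rsad2 and Ifi27 did not exceed 0.382 and 0.435 CPM in any library without Activin. All 6 genes that fell with SB rose with Activin in Vprbp siRNA cells (100% of the 6 and 25% of the 24). This pair of comparisons shares no library, but its untreated and Vprbp siRNA libraries deviated together as given above. Of the 4 that rose with SB, Ddx58 rose here too.

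By role, the rises in Vprbp siRNA cells covered 5 of 6 GTPases, 4 of 4 ADP-ribosylation genes, 5 of 8 antigen presentation genes, 7 of 13 effectors, 3 of 6 sensors and 0 of 5 tested genes in each of the transcription and ISG15 groups. Parp14 was at 11.2, 16.1 and 13.1 CPM without and 27.9, 32.3 and 24.3 CPM with Activin (1.07 ± 0.13, adjusted p = 8.8e-05). Parp12 went from 19.8, 22.8 and 16.2 CPM to 40.0, 42.4 and 31.0 CPM (0.95 ± 0.14, adjusted p = 0.00027). Tapbp went from 46.7, 66.2 and 40.4 CPM to 97.3, 108 and 82.4 CPM (0.91 ± 0.14, adjusted p = 0.00089). In all 3 genes the Activin libraries lay above the others, and replicate 3 was the lowest Activin library for Parp12, Tapbp and Parp14. Zbp1 was at 1.45, 2.25 and 0.654 CPM without and 6.47, 8.09 and 4.93 CPM with Activin (2.17 ± 0.36, adjusted p = 0.00095). Psmb8 was at 1.99, 5.33 and 1.96 CPM without and 11.5, 12.1 and 9.09 CPM with Activin (1.82 ± 0.33, adjusted p = 0.0027). Tap2 went from 6.42, 10.7 and 6.15 CPM to 16.6, 20.8 and 12.7 CPM (1.11 ± 0.20, adjusted p = 0.0023). Among the libraries without Activin, replicate 2 was the highest for each of these 6 genes.

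Xaf1 was at 2.21, 3.76 and 2.22 CPM without and 8.86, 6.50 and 5.41 CPM with Activin (1.34 ± 0.24, adjusted p = 0.0015). Bst2 was at 54.6, 61.6 and 44.4 and 93.6, 97.6 and 74.4 CPM (0.73 ± 0.12, adjusted p = 0.0016). Rtp4 was at 1.22, 2.40 and 0.262 and 7.19, 6.93 and 4.51 CPM (2.28 ± 0.42, adjusted p = 0.0025). These effectors had separate ranges, as did Lgals3bp, which was at 2.44, 1.35 and 2.09 CPM without and 8.62, 6.57 and 3.40 CPM with Activin (1.64 ± 0.29, adjusted p = 0.0017). The GTPase Irgm2 was at 4.28, 9.54 and 2.49 and 25.9, 23.5 and 17.4 CPM (2.05 ± 0.35, adjusted p = 0.0042). The RNA sensor Ddx58 was at 20.3, 27.4 and 15.2 and 35.4, 39.4 and 34.2 CPM (0.80 ± 0.16, adjusted p = 0.0051). Neither gene had overlapping ranges, whereas Gbp2 rose (1.23 ± 0.29, adjusted p = 0.023) with an overlap, at 8.94, 14.2 and 6.54 and 28.5, 27.4 and 13.4 CPM. The further genes that rose were Dtx3l, Igtp, Irgm1, Gbp4, Parp9, H2-K1, Tap1, Rsad2, Ifih1, Ifi27 and Oasl2, with log2 fold changes from 0.44 ± 0.10 for H2-K1 to 2.42 ± 0.67 for Ifi27. Leaving out Vprbp siRNA replicate 1 or 3 left 15 calls each, and a fit of only these 6 libraries left 11. The calls of 14 genes held in every fit without 1 library: Bst2, Ddx58, Dtx3l, Igtp, Irgm2, Lgals3bp, Parp12, Parp14, Psmb8, Rtp4, Tap2, Tapbp, Xaf1 and Zbp1.

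**Figure D4:**
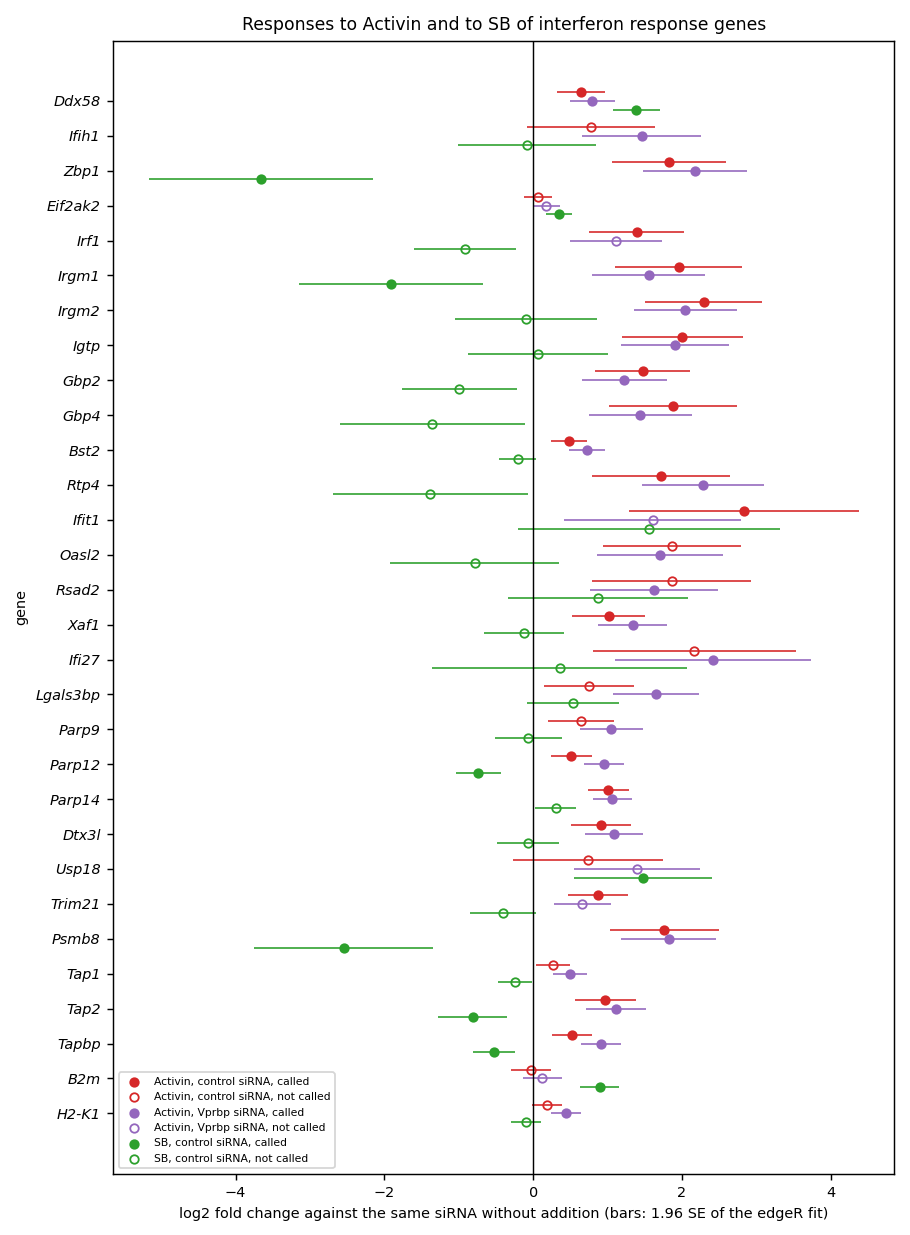
Log2 fold changes against the same siRNA without addition for the 30 genes called in at least 1 of 3 comparisons, with bars of 1.96 standard errors: Activin with control siRNA (red), Activin with Vprbp siRNA (purple) and SB with control siRNA (green), filled where called. Called Activin values are all above 0, while called SB values lie on both sides, from -3.66 for Zbp1 to 1.48 for Usp18.

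The knockdown comparisons ask whether the Vprbp siRNA altered these genes. No interferon response gene passed at either Activin level, where 0.0342% of all genes tested were called higher and 0.00685% lower in each case (0.0411% in all). Without Activin 12 of 47 had an unadjusted p under 0.05 by edgeR, and DESeq2 called 0. With Activin 17 did, and DESeq2 called 3, giving no adjusted p for 21. The result with Activin depended on the fit: 6 genes were called when the 3 libraries farthest from their groups were left out, 6 with only the libraries compared, 2 with a replicate block, 1 without the filter on low counts and 1 without Vprbp siRNA with Activin replicate 3. Without Activin, leaving out the 3 libraries gave 1 call. The median log2 fold change was 0.26 without and 0.33 with Activin, with values near 0 over all genes tested in both cases, and it was above 0 at 38 and 44 of 47 genes. Ranges were all higher with the Vprbp siRNA at 5 genes without Activin and 18 with it, against 6.64% and 8.38% of all genes, and all lower at 2 and 0 genes, against 5.65% and 9.03%.

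The smallest p-values differed between the Activin levels. Without Activin they were those of Gbp4 (1.47 ± 0.45, adjusted p = 0.44) and Gbp2 (1.05 ± 0.33, adjusted p = 0.46). Gbp4 was at 0.678, 1.16 and 0.225 CPM with control siRNA and 1.68, 2.85 and 1.31 CPM with Vprbp siRNA. H2-D1 was lower by -0.37 ± 0.13 (adjusted p = 0.48), and neither Gbp gene nor H2-D1 passed although their ranges were separate. With Activin the smallest were those of Parp12 (0.69 ± 0.13, adjusted p = 0.081), Tapbp (0.54 ± 0.13, adjusted p = 0.17) and Ddx58 (0.59 ± 0.16, adjusted p = 0.2). Every Vprbp siRNA library with Activin lay above every control siRNA library with Activin at these 3 genes. The control siRNA levels with Activin spread little (Parp12 23.4 ± 0.816 CPM, SD, n = 3), and those of the Vprbp siRNA more (37.8 ± 6.00). Replicate 3 was the lowest of the Vprbp siRNA libraries with Activin for 34 of 47 genes (72.3%, against 37.0% of all genes tested).

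Averaged over both Activin levels, the Vprbp siRNA raised 3 of 47 genes, Parp12 (0.47 ± 0.10, adjusted p = 0.029), Gbp4 (1.25 ± 0.28, adjusted p = 0.039) and Ddx58 (0.51 ± 0.11, adjusted p = 0.04), and lowered none, where 0.664% of all genes rose and 0.274% fell (0.938% called in all). Gbp2 (0.93 ± 0.22, adjusted p = 0.064), Psmb8 (0.97 ± 0.25, adjusted p = 0.076) and Parp14 (0.36 ± 0.10, adjusted p = 0.076) followed without passing. The count rested on single libraries. It was 12 without Vprbp siRNA replicate 3, 5 without Vprbp siRNA with Activin replicate 3, 3 without untreated replicate 2 and 1 without Vprbp siRNA with Activin replicate 1. It was 0 in the other 8 fits without 1 library, and 8 by DESeq2, 6 with a replicate block and 11 when the 3 libraries farthest from their groups were left out. The series has no other siRNA against Vprbp and no rescue, so loss of Vprbp and other effects of the siRNA cannot be told apart.

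The Activin responses themselves did not differ by a test between the siRNA backgrounds. The difference of responses was called at 0 of 47 genes and at 0% of all genes, by edgeR and by DESeq2, and 2 of 47 had an unadjusted p under 0.05 by edgeR. These were H2-D1 (0.56 ± 0.19, interval 0.19 to 0.92) and Parp12 (0.44 ± 0.20, interval 0.05 to 0.82), named after their values were seen. For Irgm2 the difference was -0.24 ± 0.54 with an interval of -1.30 to 0.82, and for Zbp1 0.35 ± 0.55 with -0.73 to 1.42. Intervals this wide do not show that the responses were alike.

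**Figure D5:**
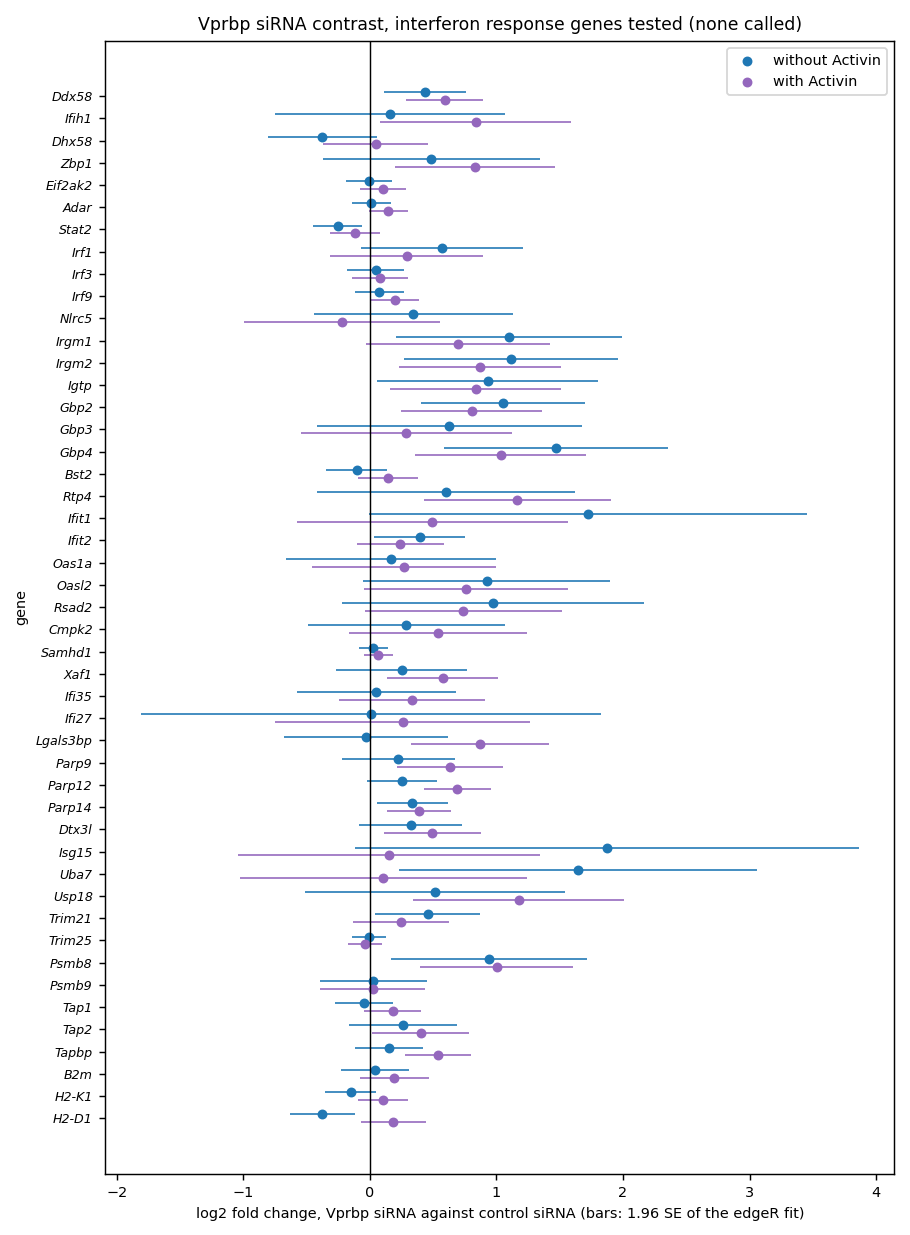
Log2 fold change of Vprbp siRNA against control siRNA for the 47 genes tested, without Activin (blue) and with Activin (purple), with bars of 1.96 standard errors. Most points lie above 0 (38 without and 44 with Activin), and no gene was called.

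The 12 genes tested and called in no comparison covered a wide range of levels. Trim25, a ubiquitin ligase of the RIG-I pathway, lay at 121 to 158 CPM over the 15 libraries, Samhd1, which lowers the nucleotide pool, at 85.2 to 103, Stat2 at 66.5 to 106 and Irf3, a factor downstream of the sensors, at 27.6 to 37.5. Low levels were found for Ifit2 (2.78 to 5.56 CPM), Ifi35 (1.16 to 3.90), Dhx58 (1.99 to 3.68), which encodes the RNA sensor LGP2, Oas1a (0.674 to 3.51), Cmpk2 (0.764 to 2.79), Nlrc5 (0.573 to 2.45), Isg15 (0 to 2.40) and Uba7 (0.150 to 1.504), the activating enzyme of ISG15. The 3 genes below the filter were at 0.0764 to 0.749 CPM for Irf7, a factor that amplifies type I interferon, 0 to 0.479 for Ifit3 and 0 to 0.208 for Sp100. At these depths a count of 0 allows 0.196 to 0.271 CPM in a library, taking 3 counts as the limit, which covers counting error only.

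The genes that make and receive interferon were examined from further lists. Of 21 interferon genes present, 0 reached the filter. No count was found for 18 of them in any library, Ifnb1 and Ifng among them, and the totals over 15 libraries were 3 counts for Ifna5, 8 for Ifnk and 8 for Ifnl2. The 17 genes of the receptors and their signalling were all tested. Activin gave 0 calls among them under either siRNA by edgeR and by DESeq2. Of all genes tested, edgeR called 4.83% in control siRNA cells and 6.12% in Vprbp siRNA cells. By edgeR, 2 and 5 of the 17 had an unadjusted p under 0.05 in control and Vprbp siRNA cells. The type I receptor genes Ifnar1 and Ifnar2 lay at 70.2 to 91.5 and at 20.9 to 29.4 CPM. With SB, which called 22.6% of all genes tested, 1 of the 17 changed: Socs3, a feedback inhibitor of Jak kinases, fell (-0.59 ± 0.10, adjusted p = 0.00014). Against SB, Activin gave higher levels of Socs3 (0.49 ± 0.10), the phosphatase gene Ptpn2 (0.35 ± 0.08) and the interferon gamma receptor gene Ifngr1 (0.39 ± 0.12), and a lower level of the partner Ifngr2 (-0.31 ± 0.11). These calls make up 23.5% of the 17, below the 38% of all genes tested that were called in this comparison.

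Of 22 tested adaptors, kinases and further sensors, Activin in control siRNA cells raised the RNA sensor Tlr3 (1.34 ± 0.34, adjusted p = 0.032) and lowered Irf2bp2 (-0.37 ± 0.08, adjusted p = 0.013). With Vprbp siRNA, Irf2bp2 fell again (-0.35 ± 0.08) and no other gene of this list passed. Of all genes tested, Activin called 4.83% with control siRNA and 6.12% with Vprbp siRNA. SB raised 3 of the 22 and lowered 5, where 11.2% of all genes tested rose and 11.3% fell. Tmem173, or Sting, the adaptor of DNA sensing, rose (1.31 ± 0.32), as did Irf2 (0.92 ± 0.24), while the DNA sensor Aim2 (-0.83 ± 0.18) and Irf2bpl (-0.67 ± 0.08) fell. Averaged over Activin, the Vprbp siRNA lowered 1 of the 22, Irf8 (-0.39 ± 0.09, adjusted p = 0.046). Of all genes tested, 0.274% fell in this comparison (0.938% called in all). Whether the Irf8 call holds without single libraries was not tested.

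Other interferon-induced genes numbered 68 in the table, of which 42 were tested. With Activin 6 rose and 1 fell in control siRNA cells, and 8 rose and 1 fell with Vprbp siRNA, with medians of 0.19 and 0.31. Of all genes tested, 2.95% rose and 1.88% fell in control siRNA cells, and 3.65% and 2.47% with Vprbp siRNA. Gbp7, a further guanylate binding protein, averaged 2.45 ± 0.743 CPM untreated, 7.40 ± 0.876 with Activin and 1.85 ± 0.480 with SB (1.59 ± 0.30 for Activin, adjusted p = 0.0044). Parp10 (1.38 ± 0.27) and Trim12c (1.53 ± 0.29) also rose with Activin in control siRNA cells, and Phf11d fell (-0.46 ± 0.11). With Vprbp siRNA, Trim30a (2.27 ± 0.47), Gbp7 (1.30 ± 0.27), Trim14 (0.93 ± 0.19) and Parp10 (1.25 ± 0.25) rose. SB raised 3 and lowered 7 of the 42, and this share of 23.8% lay near the 22.6% of all genes tested that SB called. The lectin gene Lgals9 fell from 14.3 ± 1.10 to 5.53 ± 0.292 CPM (-1.37 ± 0.13, adjusted p = 1.7e-07), while the RNA-binding antiviral gene Zc3hav1 rose from 26.7 ± 2.34 to 46.7 ± 2.84 CPM (0.81 ± 0.16, adjusted p = 0.0016). The necroptosis effector Mlkl (0.98 ± 0.24) and Tor1aip1 (0.39 ± 0.09) rose with SB as well.

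Further genes of class I presentation, 25 in the table and 17 tested, rose at 4 with Activin in control siRNA cells and at 5 with Vprbp siRNA, and none fell, where 2.95% and 3.65% of all genes tested rose. Erap1, the peptidase that trims class I peptides, averaged 6.87 ± 1.74 CPM untreated, 17.2 ± 0.994 with Activin and 4.36 ± 0.387 with SB, and 12.1 ± 4.60 and 31.2 ± 3.06 with Vprbp siRNA without and with Activin. It rose with Activin under both siRNAs (1.33 ± 0.21, adjusted p = 0.0019, and 1.38 ± 0.20, adjusted p = 0.00046) and with the Vprbp siRNA averaged over Activin (0.83 ± 0.15, adjusted p = 0.016). That averaged comparison raised 2 of the 17, where 0.664% of all genes tested rose. The proteasome activator subunits Psme1 (0.44 ± 0.09) and Psme2 (0.70 ± 0.16) and the immunoproteasome subunit Psmb10 (0.87 ± 0.22) rose with Activin in control siRNA cells. SB called 0 of these 17 genes by edgeR, against 22.6% of all genes tested. Of the 17, 5 had an unadjusted p under 0.05 by edgeR, and DESeq2 called 2 lower. Against SB, Activin gave higher levels of 8 and lower levels of 2, where 19% of all genes tested were higher and 19% lower, with Erap1 at 1.98 ± 0.23, Psme2 at 1.00 ± 0.16, Psmb10 at 1.45 ± 0.23 and Psme1 at 0.46 ± 0.09.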

How the data were processed

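The authors deposited raw fragment counts by gene symbol, not normalized, for 15 libraries, made with HTSeq 0.6.1p1 against mm10 per the submitters' processing notes. No source used here gives the aligner, annotation or strand setting, so the counts of overlapping genes and of close relatives are uncertain. Sample titles gave the groups and replicate numbers. The 5 HTSeq tallies were kept out (unassigned to genes 10.3% to 16.0%, ambiguous 0.678% to 0.722%, not aligned 27.7% to 29.5% of fragments per library). In R 4.3.3, edgeR 4.0.16 kept 14600 genes with filterByExpr (minimum count 10), scaled by TMM and fitted all 15 libraries with 1 mean per group (robust quasi-likelihood, Benjamini-Hochberg adjustment at 0.05). Values are CPM, with mean ± SD (n = 3), and log2 fold changes with the standard error of the fit, for 8 comparisons. Intervals are 1.96 standard errors. The biological coefficient of variation was 8.76%.

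The members, gene lists and tests were chosen with earlier results of these data known. Genes are given with every library's value when called and among the 12 smallest p-values of a comparison, others by means, ranges and counts, and from each further list up to 4 called genes with the smallest p-values are named; every other gene named was chosen after its values were seen. Alternatives were RLE size factors, library totals, DESeq2 1.42.0, no filter, a minimum of 1 CPM in 3 libraries, a replicate block, only the libraries compared, each library left out and 3 libraries that lay apart left out together. On simulated counts for Activin in control siRNA cells (14419 genes) 5 of 144 calls were false. The test recovered 20% of genes changed 1.3-fold and 78% of those changed 1.5-fold, and for changes of 2-fold and 4-fold it found 80% and 100%. The changed genes were drawn from all genes tested, and no simulated library was shifted as untreated replicate 3 was. These rates therefore need not hold for the calls described here. Between the untreated and Vprbp siRNA groups, same-numbered libraries deviated together (correlation across genes of 0.123, 0.196 and 0.369). The labels give replicate numbers but no pairing, and the main fit did not pair them. The replicate block, an alternative, did. Elsewhere at least 1 number stayed at or under 0.1. Positions, promoters and gene overlaps come from RefSeq tables on GRCm38.p6 (mm10), and exon lengths from GENCODE M21.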

Additional observations from a re-analysis of the deposited data

How the results depend on the processing

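Scaling, filters and test tool removed few calls, and single libraries removed many. No value reversed its sign. Of 86 called gene values, 86 kept their calls with RLE size factors, 81 with library totals, 78 without a filter, 84 by DESeq2 and 86 with the replicate block. Without 1 library 356 of 534 values did, and each such fit also has fewer libraries. With only the libraries compared 68 of 82 values kept their calls, and without the 3 libraries that lay apart 46 of 56 did. Calls gained are not in these counts: for Activin in control siRNA cells DESeq2 called 23 genes and edgeR 19. The number of interferon response genes called ranged from 4 to 15 over the fits without 1 library for Activin in control siRNA cells (19 with all libraries), 15 to 27 for Activin in Vprbp siRNA cells (24), 7 to 13 for SB (10), 22 to 29 for Activin against SB (30), 0 to 12 for the knockdown averaged over Activin (3), 0 to 1 for the knockdown with Activin (0) and 0 for the knockdown without Activin and for the difference of responses. For Activin in Vprbp siRNA cells, fitting only the libraries compared left 11 calls. Without the 3 libraries that lay apart, SB gave 17 calls, the knockdown averaged over Activin 11, the knockdown with Activin 6 and the knockdown without Activin 1. For the knockdown with Activin, no filter gave 1 call, DESeq2 3, the replicate block 2 and only the libraries compared 6. For the knockdown averaged over Activin, DESeq2 gave 8 calls and the replicate block 6. For the knockdown without Activin, where same-numbered libraries deviated together, the replicate block left 0 calls. The causes were not tested. Genes near 1 CPM, such as Ifit1, Rsad2, Ifi27, Isg15 and Uba7, held as few as 5 to 10 counts in a group, which limits the precision of their fold changes.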
